A study of Homo sapiens with 6 samples.

Results

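The core cardiac transcription factors are the regulators that switch on and maintain the heart muscle programme, and 10 of them were followed here: NKX2-5, ISL1, GATA4, GATA6, MEF2C, HAND1, HAND2, TBX5, TBX20 and MYOCD. They were taken by gene symbol from a table of 35793 genes, with earlier results of these data known, and all 10 were found and tested. RNA came from cardiomyocytes differentiated from WTC11, an established human induced pluripotent stem cell line, and collected on day 15. One genotype was unedited (wild type) and the other was a WTC11 derivative with a homozygous CRISPR/Cas9 knockout of STK25, a serine/threonine kinase. Each genotype had 3 replicates, described as biological, kept in RPMI medium with B27 supplement and given no treatment. The knockout was represented by 1 edited line, so the edit and any other difference between the lines cannot be told apart.

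These factors work as a network in which members bind near each other and regulate one another. ISL1, a LIM-homeodomain protein, marks second heart field progenitors and pacemaker cells and is normally lowered as working heart muscle matures. NKX2-5 is a homeodomain protein that drives chamber muscle and can repress ISL1. GATA4 and GATA6 are zinc finger proteins, TBX5 and TBX20 are T-box proteins, HAND1 and HAND2 are basic helix-loop-helix proteins, and MEF2C is a MADS-box protein. MYOCD (myocardin) binds no DNA itself but acts through serum response factor on cardiac and smooth muscle genes.

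Promoter sequence from RefSeq on GRCh38.p14 was matched by symbol for 7 members, and 3 are shown. ISL1 had the largest fitted rise of the 10, HAND2 varied most between libraries of 1 genotype, and its paralog HAND1 had the narrowest range over the 6 libraries. Each stretch lies before the RefSeq start and stops where the first GENCODE 29 exon begins. They are chr5:51383198-51383390 on the plus strand for ISL1, chr4:173530230-173530479 on the minus strand for HAND2 and chr5:154478265-154478477 on the minus strand for HAND1. Capitals mark a GATA motif (AGATAA) or an E-box (CANNTG) on either strand.
ISL1: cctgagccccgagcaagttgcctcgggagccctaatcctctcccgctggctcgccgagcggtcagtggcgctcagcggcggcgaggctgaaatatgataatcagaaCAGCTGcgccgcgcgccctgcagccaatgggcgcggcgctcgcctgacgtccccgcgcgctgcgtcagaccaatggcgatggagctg
HAND2: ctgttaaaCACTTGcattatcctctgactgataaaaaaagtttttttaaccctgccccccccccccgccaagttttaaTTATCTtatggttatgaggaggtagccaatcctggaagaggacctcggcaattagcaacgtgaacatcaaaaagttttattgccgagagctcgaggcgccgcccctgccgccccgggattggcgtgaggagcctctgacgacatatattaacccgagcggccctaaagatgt
HAND1: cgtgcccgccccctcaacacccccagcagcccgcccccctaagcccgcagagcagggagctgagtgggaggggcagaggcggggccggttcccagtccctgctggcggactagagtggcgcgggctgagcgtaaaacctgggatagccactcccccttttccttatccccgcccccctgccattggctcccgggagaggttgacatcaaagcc

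The ISL1 E-box began 144 bases before the RefSeq start, and the HAND2 stretch held an E-box at 242 bases and a GATA motif at 172 bases. The ISL1 window of 250 bases also held a GATA motif 31 bases before the start, within the first exon of GENCODE. HAND1 held neither motif. Of 35116 RefSeq promoter windows of 250 bases, 9.17% held the GATA motif and 61.8% the E-box. These matches describe letters in a window and were not compared with expression.

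Reads assigned to genes ran from 22443904 to 53224112 per library, and no member had fewer than 318 reads in any library. The values below are the deposited normalized counts, which are reads divided by 1 factor per library. STK25 itself had 8874, 6774 and 8710 normalized counts in wild-type replicates 1 to 3 and 3906, 3434 and 3820 in the knockout (log2 fold change -1.12, SE 0.19, limma with Benjamini-Hochberg adjustment, adjusted p = 0.00903; 0.0611 without wild-type replicate 1). The position of the edit is not given in the sources used here, so this level checks the labels only in direction. Wild-type replicate 2 and knockout replicate 1 stood apart from the other libraries on the second principal component, which held 24.1% of the variance. The cells carried heart muscle markers: 10 sarcomere and calcium-release genes such as TNNT2, ACTN2 and MYH6, none of which passed the test described below (6 of 10 at an unadjusted p under 0.05, 2 with edgeR and 6 with DESeq2), summed to 5.64% to 5.85% of normalized counts in the wild type and 8.13% to 9.66% in the knockout.

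Of the 10 factors, 3 passed the test between genotypes. ISL1 and MEF2C rose and NKX2-5 fell in the knockout, with means 13.8 times, 2.194 times and 30.6% of the wild-type mean. The other 7 did not pass. The test was limma on log2(normalized count + 1) over 15536 genes, with Benjamini-Hochberg adjustment and a threshold of 0.05. Over all genes tested 12.8% passed, 5.97% higher and 6.79% lower in the knockout. On whole reads recovered from the values, edgeR (quasi-likelihood) called 3 factors, against 12.0% of all genes. With DESeq2 the number was 5, with TBX5 and MYOCD beside NKX2-5, ISL1 and MEF2C, against 20.7% of all genes. The median log2 fold change was -0.17 for the 10 factors and 0.01 for all genes tested. An exact two-sided permutation test of 3 against 3 libraries cannot give less than p = 0.1, the value it gave for NKX2-5, ISL1, MEF2C, TBX5 and MYOCD.

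**Figure D1:**
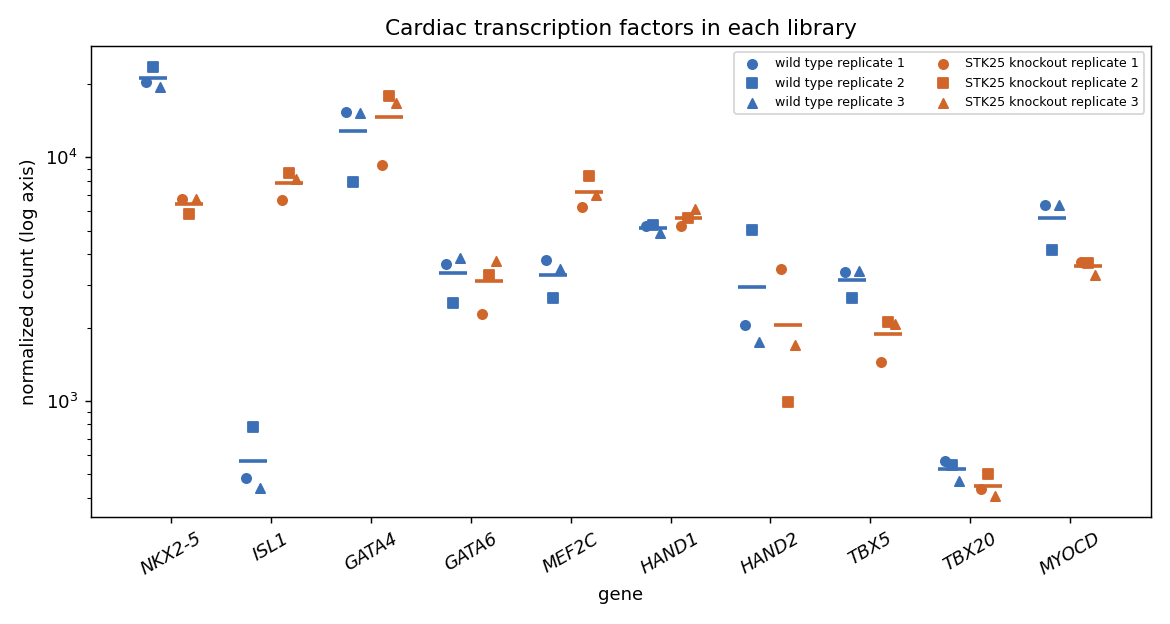
Normalized counts (log axis) of the 10 factors in each of 6 libraries, blue for wild type and orange for STK25 knockout, with a marker shape per replicate number and a bar at the mean of each genotype. The ISL1 values of the knockout lie between 6696 and 8622, far above the wild-type range of 440.1 to 781.5, while those of GATA4, GATA6, HAND1, HAND2 and TBX20 overlap between genotypes.

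NKX2-5 and ISL1 are homeodomain factors that moved in opposite directions. NKX2-5 (ENSG00000183072.9; chromosome 5, 173232109 to 173235357, minus strand, GENCODE 29 on GRCh38, as for all positions of genes here) had 20429, 23430 and 19414 normalized counts in the wild type and 6718, 5869 and 6745 in the knockout. The knockout libraries lay close together and at about 30.6% of the wild-type mean, with no overlap. Its log2 fold change was -1.71 (SE 0.18, limma adjusted p = 0.00135). With any 1 of the 6 libraries left out it still passed, at -1.77 to -1.63.

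ISL1 (ENSG00000016082.14; chromosome 5, 51383391 to 51394738, plus strand) had 480.3, 781.5 and 440.1 normalized counts in the wild type and 6696, 8622 and 8133 in the knockout. Every knockout library was above every wild-type library. This gave a log2 fold change of 3.82 (SE 0.26, limma adjusted p = 0.000225), with a 95% interval of 3.22 to 4.42. Leaving out 1 library gave changes from 3.66 to 4.08, all past the threshold.

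The ratio of ISL1 to NKX2-5 within a library does not depend on how libraries are scaled. ISL1 stood at 2.35%, 3.34% and 2.27% of NKX2-5 in the wild-type libraries and at 99.7%, 147% and 121% in the knockout libraries. The share was low in every wild-type library and high in every knockout library. Such ratios are not corrected for transcript length, so they are compared between libraries and not read as relative levels. The difference in mean log2 ratio was 5.53, or 46.2-fold (exact two-sided permutation p = 0.1, the smallest possible; 0.25 adjusted over 5 pairs).

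ISL1 is also expressed outside the heart, above all in motor and sensory neurons, so markers of such neurons were read in the same libraries. Of 6 genes, LHX3 was at 0 in all libraries and CHAT had at most 3 reads in each. POU4F1, a factor of ISL1-bearing sensory neurons that is also found in some heart muscle, had 0, 16.8 and 13.4 normalized counts in the wild type and 1589, 697.7 and 557.2 in the knockout (log2 fold change 7.07, SE 1.07, limma adjusted p = 0.00558; 5.55 with a pseudocount of 10 and 8.23 with 0.1). It was named after its values were seen. The summed level of the 6 genes lay between 3.02 and 24.2 normalized counts in wild-type libraries and between 565.2 and 1589 in knockout libraries, and 1 of the 6, POU4F1, was abundant enough to be tested. Its part in the ISL1 difference was not tested. In bulk RNA, a change in the number of cells of a type and a change in RNA per cell cannot be told apart.

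**Figure D2:**
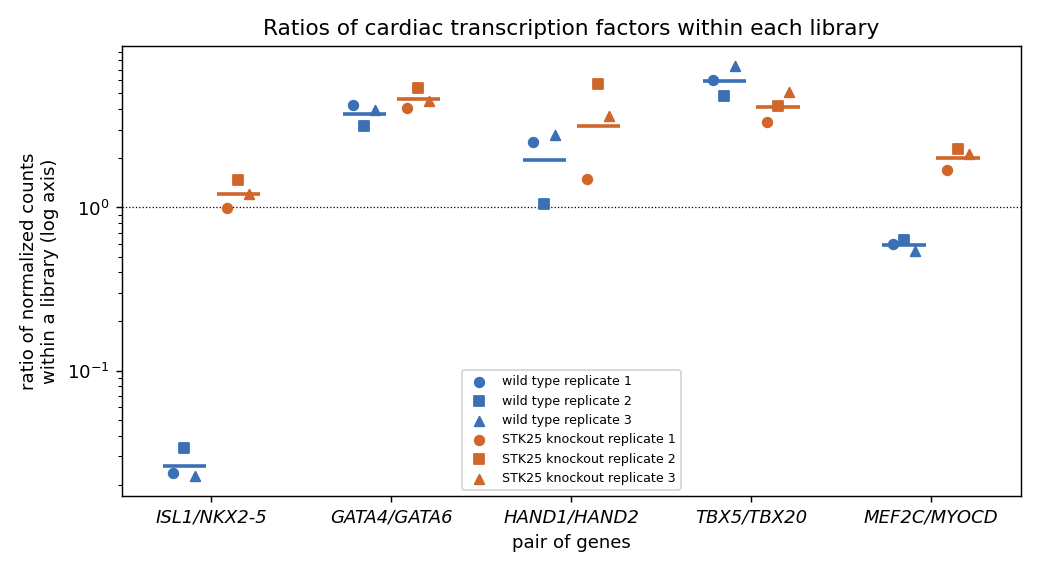
Ratio of normalized counts of 2 factors within the same library (log axis) for 5 pairs, blue for wild type and orange for knockout, with a bar at the geometric mean. Both ISL1/NKX2-5 and MEF2C/MYOCD separate the genotypes, and the other 3 pairs overlap.

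MEF2C, a MADS-box factor needed for second heart field and muscle gene expression, was the other member that rose. MEF2C (ENSG00000081189.15; chromosome 5, 88717117 to 88904257, minus strand) had 3796, 2635 and 3466 normalized counts in the wild type and 6274, 8409 and 7032 in the knockout. The genotypes did not overlap, and the log2 fold change was 1.14 (SE 0.22, limma adjusted p = 0.0138). This call was less firm than those of ISL1 and NKX2-5. Its adjusted p rose above the threshold when wild-type replicate 3 (0.0517), knockout replicate 2 (0.0502) or knockout replicate 3 (0.0601) was left out. It was 0.0939 when libraries were scaled to equal totals (log2 fold change 0.86) and 0.0747 when scaled to the cardiomyocyte markers (0.65).

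MYOCD, the coactivator, did not pass, although its genotypes did not overlap. MYOCD (ENSG00000141052.17; chromosome 17, 12665890 to 12768949, plus strand) had 6357, 4165 and 6387 normalized counts in the wild type and 3719, 3696 and 3302 in the knockout. Wild-type replicate 2 was the lowest of its genotype and lay nearest to the knockout. The log2 fold change was -0.63 (SE 0.22, 95% interval -1.14 to -0.12, limma adjusted p = 0.107). Without wild-type replicate 2 it was -0.84 with an adjusted p of 0.0352, and DESeq2 on the recovered reads gave 0.0436. Over 13 alternatives with all libraries the adjusted p ran from 0.00809 to 0.289. Set against MYOCD within a library, MEF2C stood at 59.7%, 63.3% and 54.3% in the wild type and 169%, 228% and 213% in the knockout, a mean log2 difference of 1.77 (exact two-sided permutation p = 0.1, 0.25 adjusted over 5 pairs).

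The T-box factors were both lower in mean in the knockout, and neither passed. TBX5 (ENSG00000089225.19; chromosome 12, 114353931 to 114408442, minus strand), which activates left ventricular and conduction genes, had 3385, 2641 and 3418 normalized counts in the wild type and 1444, 2103 and 2075 in the knockout. Its genotypes did not overlap. The log2 fold change was -0.76 (SE 0.22, 95% interval -1.28 to -0.24, limma adjusted p = 0.0666). The adjusted p was 0.0377 with equal upper quartiles, 0.0336 with quantile normalization, 0.00774 when scaled to the cardiomyocyte markers and 0.0178 with DESeq2, and ran up to 0.214 over the 13 alternatives with all libraries.

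TBX20 (ENSG00000164532.10; chromosome 7, 35202430 to 35254147, minus strand), which keeps chamber muscle in its working state, was low and steady. It had 563.4, 546.9 and 466.9 normalized counts in the wild type and 434.7, 499.3 and 407.9 in the knockout. One knockout library lay within the wild-type range. TBX20 had a log2 fold change of -0.23 (SE 0.22, 95% interval -0.75 to 0.28, limma adjusted p = 0.558). The TBX5/TBX20 ratio was 6.01, 4.83 and 7.32 in the wild type and 3.32, 4.21 and 5.09 in the knockout, and the ranges overlapped (exact two-sided permutation p = 0.2).

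The GATA factors did not pass and their genotypes overlapped. GATA4 (ENSG00000136574.17; chromosome 8, 11676959 to 11760002, plus strand), which works with NKX2-5 and TBX5 on heart genes, had 15367, 7954 and 15278 normalized counts in the wild type and 9293, 17787 and 16705 in the knockout. One library of each genotype was low and the other two were high. GATA4 had a log2 fold change of 0.19 (SE 0.35, 95% interval -0.63 to 1.01, limma adjusted p = 0.791), and its sign turned under 3 scalings. GATA6 (ENSG00000141448.8; chromosome 18, 22169443 to 22202528, plus strand) had 3643, 2513 and 3877 in the wild type and 2273, 3297 and 3737 in the knockout. Its log2 fold change was -0.11 (SE 0.26, 95% interval -0.72 to 0.50, limma adjusted p = 0.835), a width that does not show equal levels. GATA4/GATA6 ratios of 3.17 to 4.22 in wild-type libraries overlapped those of 4.09 to 5.40 in knockout libraries (exact two-sided permutation p = 0.2).

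HAND1 was the steadiest of the 10 and HAND2 the most variable. HAND1 (ENSG00000113196.2; chromosome 5, 154474972 to 154478264, minus strand), a left ventricular factor, had 5206, 5254 and 4900 normalized counts in the wild type and 5215, 5629 and 6132 in the knockout. All 6 libraries lay within a 1.25-fold range. HAND1 had a log2 fold change of 0.14 (SE 0.17, 95% interval -0.25 to 0.53, limma adjusted p = 0.651), an interval from 0.841-fold to 1.45-fold. Its sign turned under the 3 scalings that moved GATA4. HAND2 (ENSG00000164107.8; chromosome 4, 173524969 to 173530229, minus strand), which acts in the right ventricle and outflow tract, had 2056, 5031 and 1752 in the wild type and 3475, 992.0 and 1690 in the knockout. One library of each genotype was high. HAND2 had a log2 fold change of -0.55 (SE 0.53, 95% interval -1.78 to 0.69, limma adjusted p = 0.570), and leaving out 1 library moved it between -1.02 and -0.08. HAND1/HAND2 ratios of 1.04 to 2.80 in wild-type libraries overlapped those of 1.501 to 5.67 in knockout libraries (exact two-sided permutation p = 0.4).

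**Figure D3:**
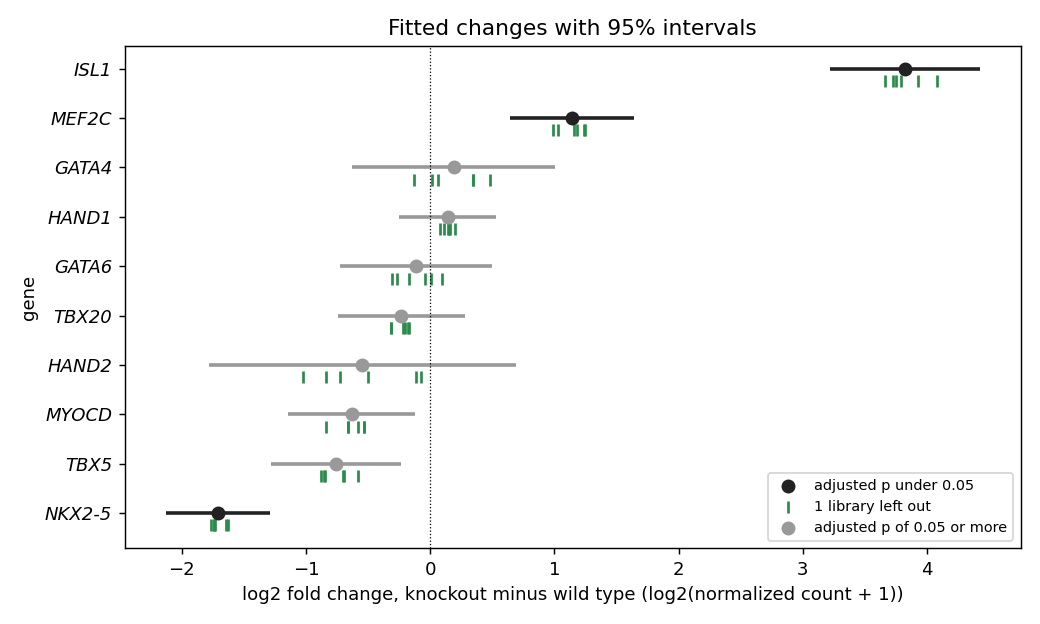
Log2 fold change of each factor, knockout minus wild type, with its 95% interval from limma (dark where the adjusted p is under 0.05, grey otherwise) and green ticks for the 6 fits that each left out 1 library. ISL1 at 3.82 and NKX2-5 at -1.71 keep their place in all of them, while the ticks of GATA4 and GATA6 fall on both sides of 0.

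Counted by overlap, 5 of the 10 factors had all 3 values of one genotype above those of the other, against 33.4% of all genes tested. ISL1 and MEF2C were the 2 higher in the knockout (16.2% of all genes), and NKX2-5, TBX5 and MYOCD were the 3 lower (17.2% of all genes). Without wild-type replicate 2 and knockout replicate 1, which leaves 2 against 2, NKX2-5, ISL1, MEF2C, TBX5 and MYOCD passed with limma, 5 of 10, beside 30.6% of all genes. In that comparison GATA4, HAND1 and HAND2 also no longer overlapped, making 8 of 10, beside 65.7% of all genes. Leaving out knockout replicate 1 alone also gave 8, beside 47.8% of all genes.

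The low GATA4 and high HAND2 values came from the same libraries in both genotypes. On the log2 scale, wild-type replicate 2 deviated from the mean of its genotype by -0.63 for GATA4 and 0.94 for HAND2, and knockout replicate 1 by -0.59 and 0.95. GATA6, MEF2C and TBX5 were also below their genotype mean in both of these libraries, GATA6 by -0.39 and -0.42. HAND2 stood at 63.2% of GATA4 in wild-type replicate 2 and 37.4% in knockout replicate 1, against 13.4% and 11.5% in the other wild-type libraries and 5.58% and 10.1% in the other knockout libraries. These are the 2 libraries set apart on the second principal component, so the genotype means of GATA4 and HAND2 each hold 1 such library.

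Transcript length moved with these libraries as well. Tested genes were split into tertiles by their longest transcript, and the shortest tertile had median deviations of 0.27 in wild-type replicate 2 and 0.24 in knockout replicate 1. GATA4 (3414 bases) and HAND2 (2780 bases) both belong to the middle tertile, whose medians were -0.13 and -0.19 there. The deviations of GATA4 had the sign of these medians and those of HAND2 did not. The tertile with the highest GC content, which holds both genes, had medians of 0.07 and 0.09, the sign of HAND2 and not of GATA4. Mitochondrially encoded transcripts took 3.90% of normalized counts in wild-type replicate 2 and 3.33% in knockout replicate 1, against 1.25% to 2.18% in the other libraries. Their part in the HAND2 and GATA4 values was not tested.

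**Figure D4:**
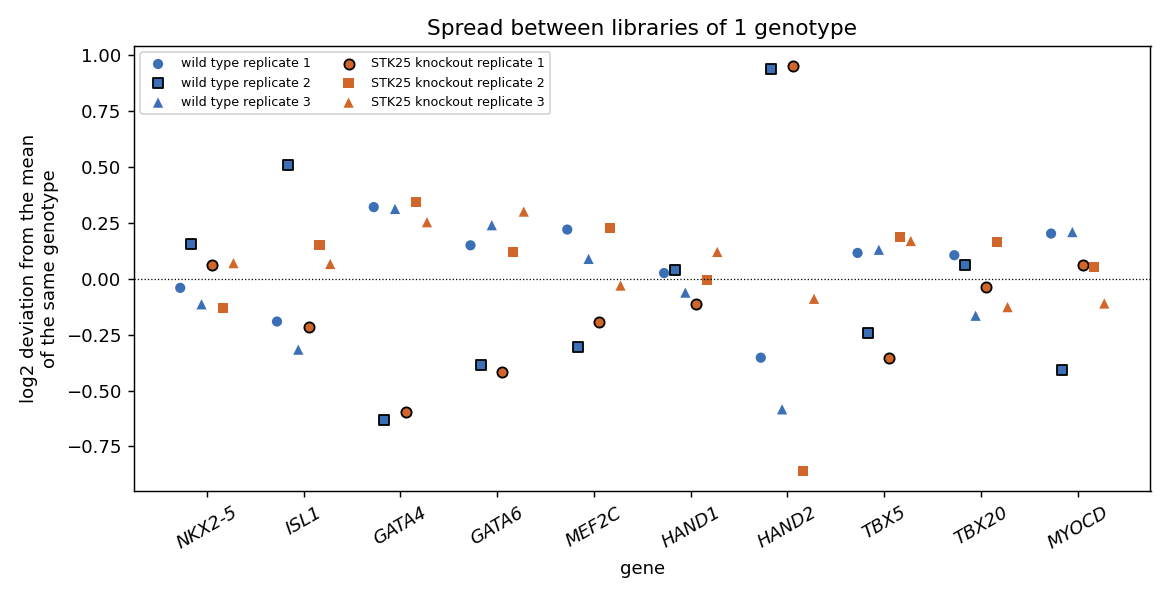
Log2 deviation of each factor in each library from the mean of the 3 libraries of its genotype, blue for wild type and orange for knockout, with wild-type replicate 2 and knockout replicate 1 outlined in black. The outlined points lie near 0.94 and 0.95 for HAND2 and near -0.63 and -0.59 for GATA4, and those of NKX2-5 and HAND1 stay close to 0.

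Levels of different factors were compared per kilobase of the longest protein-coding GENCODE 29 transcript. In the wild type NKX2-5 was highest at 12341 ± 1222 normalized counts per kilobase (SD, n = 3), followed by GATA4 at 3769 ± 1246 and HAND1 at 2946 ± 110.5. HAND2, GATA6, TBX5, MYOCD and MEF2C came next, from 1060 down to 436.3. TBX20 at 281.0 ± 27.6 and ISL1 at 230.7 ± 75.9 were lowest. The highest level was 53.5 times the lowest.

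In the knockout the order at the top was GATA4 at 4275 ± 1354, NKX2-5 at 3771 ± 291.4, HAND1 at 3256 ± 264.2 and ISL1 at 3179 ± 407.1 normalized counts per kilobase (SD, n = 3 each). These 4 neighbours overlapped in range and cannot be ordered beyond their spread. MEF2C followed at 957.4 ± 143.2, clear of ISL1, and TBX20 was lowest at 239.1 ± 25.1. The span from highest to lowest was 17.9-fold, and 37.9-fold with mean transcript lengths. In the wild type 3 of the 9 neighbouring pairs in the order did not overlap in range (NKX2-5 over GATA4, HAND1 over HAND2, MEF2C over TBX20), and in the knockout 2 of 9. With the mean transcript length in place of the longest, MEF2C, for which 33 transcripts are annotated, went from rank 8 to rank 5 in the wild type. The lowest wild-type member was then TBX20 at 281.0, with ISL1 above it at 329.8, and the span was 66.5-fold. In the knockout ISL1 went from rank 4 to rank 3.

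Genes that share a family or a task with the 10 factors were read from the same fit, as lists chosen with earlier results of these data known. Over all of them, each gene once, 23 of 69 tested genes passed, 11 higher and 12 lower in the knockout, or 33.3% against 12.8% of all genes. Leaving out wild-type replicate 1 gave 12 (5.11% of all genes passed there), wild-type replicate 3 gave 13 (5.87%) and knockout replicate 3 gave 14 (6.18%). Dropping wild-type replicate 2 together with knockout replicate 1 gave 42, with 30.6% of all genes. TBX1, TBX3, TBX18 and BMP4 each belong to 2 lists.

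Of 9 family relatives tested, TBX1 rose and NKX2-3 fell, and the median log2 fold change was 0.28. NKX2-3 lost its call, with an adjusted p of up to 0.161, when wild-type replicate 1 or 3 or knockout replicate 2 or 3 was left out. Without both wild-type replicate 2 and knockout replicate 1, 4 relatives passed, beside 30.6% of all genes. TBX1, a T-box factor of the second heart field and pharyngeal arches, had 4.53, 6.09 and 5.74 normalized counts in the wild type and 212.3, 195.0 and 300.4 in the knockout. The groups were far apart (log2 fold change 5.18, SE 0.43, limma adjusted p = 0.000472; 3.97 with a pseudocount of 10). Partner and cofactor genes, such as SRF, the HDAC repressors of MEF2 and the E-proteins that pair with HAND factors, had 1 of 16 past the threshold and a median of -0.01. This count was 4 without knockout replicate 1, where 14.2% of all genes passed. It was 7 without both that library and wild-type replicate 2, beside 30.6% of all genes. The gene that passed with all libraries was SMARCD3, the chromatin remodelling subunit BAF60C through which cardiac factors reach closed chromatin. It had 10718, 10087 and 10801 normalized counts in the wild type and 5203, 5332 and 5776 in the knockout (log2 fold change -0.96, SE 0.17, limma adjusted p = 0.0102; 0.0683 without wild-type replicate 1 and 0.0551 without wild-type replicate 3).

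The mesoderm factors that precede the cardiac programme, such as MESP1, had 0 of 4 tested genes past the threshold with limma. The number was 0 with edgeR, 0 with DESeq2 and 1 at an unadjusted p under 0.05. It was 1 without both wild-type replicate 2 and knockout replicate 1, beside 30.6% of all genes. Second heart field genes had 3 of 10 past the threshold, all higher, with a median of 0.98. TBX1 was one of them. BMP4, a ligand that patterns the heart field and a known ISL1 target, had 229.6, 166.8 and 215.0 normalized counts in the wild type and 1014, 924.0 and 1050 in the knockout (log2 fold change 2.29, SE 0.23, limma adjusted p = 0.00113). FGF8, a growth factor of the same field, had 16.6, 39.6 and 28.7 in the wild type and 186.9, 89.2 and 100.4 in the knockout (log2 fold change 2.11, SE 0.50, limma adjusted p = 0.0307). FGF8 kept its call only when wild-type replicate 2 was the library left out; leaving out any other gave an adjusted p of up to 0.1097. FGF10 and WNT11 are examples that did not pass.

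Chamber muscle genes, listed as targets of these factors, had 8 of 16 past the threshold, 7 lower (among them NPPA, GJA5, MYL2 and HEY2) and 1 higher (CASQ2), with a median of -0.46. With edgeR 10 passed and with DESeq2 13, beside 12.0% and 20.7% of all genes. Without passing in limma, NPPB, ANKRD1, ATP2A2, TNNI3 and ACTC1 were higher in every knockout library, and MYH6 was lower. In all, 14 of 16 did not overlap, beside 33.4% of all genes. GJA5, the connexin of atrial and conduction muscle and a target of NKX2-5 and TBX5, had 1072, 820.3 and 1171 normalized counts in the wild type and 0, 0 and 3.55 in the knockout (log2 fold change -9.25, SE 0.67, limma adjusted p = 0.000270). With so few knockout reads the pseudocount sets this fold: it was -6.53 with a pseudocount of 10 and -11.57 with 0.1, both past the threshold. MYL2, the ventricular regulatory light chain, had 14296, 15833 and 14249 in the wild type and 338.1, 79.1 and 109.3 in the knockout. HEY2, a ventricular repressor, had 3276, 2871 and 3533 against 108.0, 117.0 and 193.7. Both were far below the wild type in every knockout library, with log2 fold changes of -6.68 and -4.57 (SE 0.48 and 0.28, limma adjusted p = 0.000281 and 0.000177). Leaving out wild-type replicate 1 left 5 genes of this list past the threshold, as did leaving out wild-type replicate 3 or knockout replicate 3. Of all genes, 5.11%, 5.87% and 6.18% passed there. Without both wild-type replicate 2 and knockout replicate 1, 14 passed, beside 30.6% of all genes. MYH6, RYR2 and ACTC1 of this list are also among the cardiomyocyte markers.

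Pacemaker genes moved both ways, with 5 of 9 past the threshold, 2 higher (BMP4 and SMOC2) and 3 lower (among them CACNA1G), and a median of 0.07. CACNA1G, a T-type calcium channel, had 500.0, 508.0 and 645.5 normalized counts in the wild type and 0, 39.0 and 18.7 in the knockout (log2 fold change -5.89, SE 1.22, limma adjusted p = 0.0193). SMOC2, a matrix protein reported in nodal cells, had 13.6, 0 and 2.55 in the wild type and 69.9, 197.3 and 184.0 in the knockout (log2 fold change 5.20, SE 0.99, limma adjusted p = 0.0143). The folds of both depend on the pseudocount, because each has a library at 0. CACNA1G was at -4.53 with a pseudocount of 10 and -7.03 with 0.1, where its call was lost (adjusted p 0.0651), and SMOC2 at 3.36 and 6.47, past the threshold in both. CACNA1G was over the threshold without any 1 of the wild-type replicates (up to 0.0748), and SMOC2 without wild-type replicate 3 or knockout replicates 2 or 3 (up to 0.0669). Leaving out wild-type replicate 1 or 3 left 2 genes of this list, beside 5.11% and 5.87% of all genes. Leaving out knockout replicate 2 or 3 left 3, beside 8.16% and 6.18% of all genes. TBX3 and TBX18, pacemaker T-box factors, did not pass but were higher in every knockout library. Their log2 fold changes were 0.87 and 1.22 (limma adjusted p = 0.0871 and 0.0898). In all, 8 of 9 genes of this list did not overlap, beside 33.4% of all genes. DESeq2 called 8, beside 20.7% of all genes.

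Smooth muscle genes activated by myocardin with serum response factor were mostly higher in the knockout. The fitted change of MYOCD was below 0 and did not pass. Of the cofactor genes, SRF and MRTFA were higher in every knockout library without passing, and MRTFB overlapped. Their log2 fold changes were 0.59, 0.66 and -0.016 (limma adjusted p = 0.0955, 0.103 and 0.979). The part of these 4 regulators in the smooth muscle genes was not tested. Of 9 tested, 6 passed, each of them higher (ACTA2, TAGLN, CNN1, MYH11, SMTN and MYLK), and the median was 1.31. MYH11, smooth muscle myosin, had 314.2, 152.3 and 295.3 normalized counts in the wild type and 7561, 9796 and 8121 in the knockout (log2 fold change 5.12, SE 0.30, limma adjusted p = 0.000175). MYLK, myosin light chain kinase, had 308.1, 281.8 and 260.9 against 4946, 3704 and 3468 (log2 fold change 3.81, SE 0.22, limma adjusted p = 0.000144). ACTA2, smooth muscle actin, had 52943, 45593 and 49862 against 396839, 380239 and 390229 (log2 fold change 2.98, SE 0.24, limma adjusted p = 0.000420), though reads could be shared with its near-identical actin paralogs. No wild-type library reached a knockout library in these 3 genes.

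**Figure D5:**
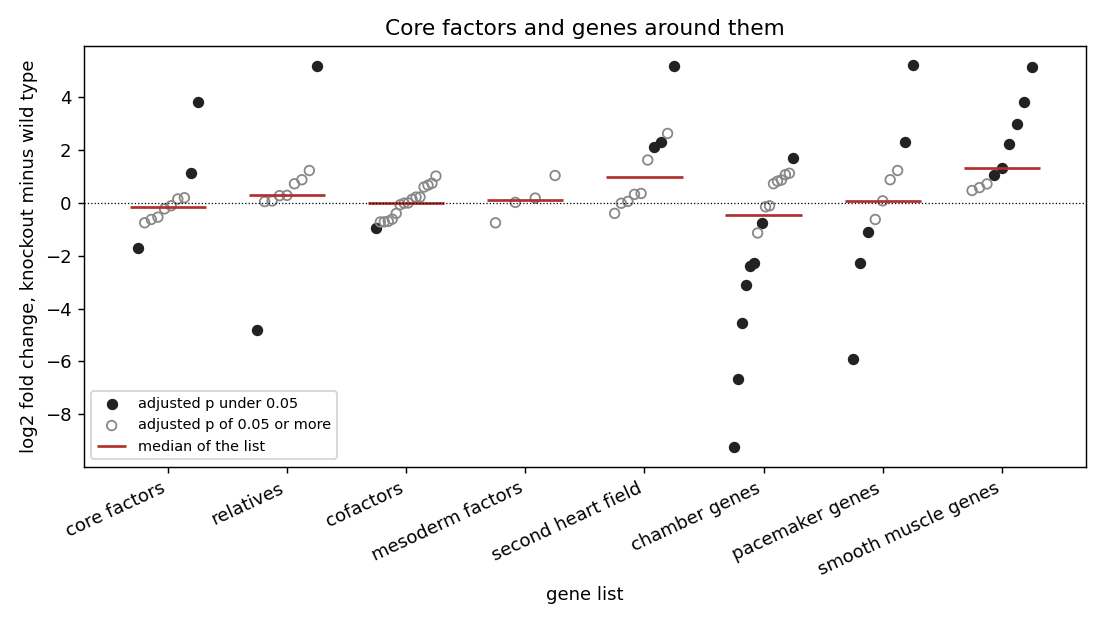
Log2 fold change, knockout minus wild type, of every tested gene in the 10 core factors and in 7 lists around them; filled points have an adjusted p under 0.05, open points do not, and red lines are list medians. Filled points of the smooth muscle list (6 of 9) all lie above 0, those of the chamber list lie below 0 except CASQ2, and the mesoderm list has none.

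Markers of cell types in which these factors are also active were low or absent in part. Endothelial CDH5 and ERG had at most 3 reads in every library, as did epicardial MSLN, and endodermal FOXA2, skeletal muscle MYOD1, MYF5 and PAX7, and trophoblast HLA-G were at 0. The 6 epicardial markers summed to 174.4 to 187.3 normalized counts in the wild type and 844.0 to 1019 in the knockout, and 2 of 5 tested (TCF21 and ALDH1A2) passed, both higher. The 7 fibroblast markers summed to 12893 to 26523 in the wild type and 7662 to 16208 in the knockout, with COL3A1 and DCN higher and COL1A2 lower past the threshold. The 8 endoderm markers summed to 1674 to 3014 and 1210 to 1257, with AFP lower. The 6 neural markers summed to 15.2 to 23.0 and 152.9 to 287.3, with SOX2 and PAX6 higher. With limma 0 of 3 tested endothelial and 0 of 3 tested trophoblast and amnion markers passed (0 and 1 at an unadjusted p under 0.05, 0 and 1 with edgeR, 0 and 1 with DESeq2). The 6 endothelial markers summed to 139.4 to 465.0 and 367.0 to 545.0, and the 6 trophoblast and amnion markers to 61.7 to 90.6 and 54.6 to 180.5. The 5 skeletal muscle markers summed to at most 15.2 in any library, and the 5 pluripotency markers to 835.6 to 1392 and 2776 to 4330, with TDGF1 higher. TDGF1 made up most of the knockout sums, at 2612, 3965 and 3970 normalized counts. Without passing, POU5F1 was higher in every knockout library and DNMT3B was lower (453.1, 232.3 and 637.9 against 6.36, 122.6 and 95.1). LIN28A overlapped between genotypes, and NANOG was too low to be tested. The part of other cell types in the levels of the 10 factors was not tested.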

How the data were processed

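RNA-seq of 6 libraries was used as 1 deposited table with 1 value per gene symbol and library. The authors deposited a signal called normalized counts. Per the submitters' processing notes, bcl2fastq 2.19, kallisto 0.44.0, DESeq2 1.28.1 and build GRCh38 were used; annotation and strand setting are not given in the sources used here, so reads of overlapping antisense genes cannot be told apart. All values (100%, within 0.01) were whole multiples of 1 step per library, so reads were recovered; floors of 3 reads cover counting error only. Libraries of 1 genotype differed by more than sampling noise, with a chi-square of at least 18.9 times its degrees of freedom. The labels do not say how the replicates were separated, so p-values measure the spread between these samples.

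limma 3.58.1 (R 4.3.3) was fitted to log2(value + 1), with a trend and no covariate, where the mean over libraries reached 10. The members and lists were chosen with earlier results of these data known. The fit was tested on simulated data of 3 against 3 libraries. There limma recovered 4 of 98 planted log2 changes of 1 (4.08%) and 59 of 98 planted log2 changes of 2 (60.2%). It called 68 of 15288 genes there, 5 of them without a planted change, against 1982 of 15536 between the genotypes. With a smaller share of genes called, the Benjamini-Hochberg adjustment is stricter. Recovery at the share called between the genotypes was not tested. A factor or listed gene that did not pass is therefore not read as equal between genotypes. The genes named are the 10 factors, STK25 and, per list, at most 3 of the genes past the threshold, those of largest change whose mean in either genotype reaches 50; POU4F1 and marker genes fall outside that rule, as do genes named only as examples or in counts. Alternatives were other pseudocounts (0.1 and 10), filters, scalings, a replicate block, eBayes settings, edgeR 4.0.16, DESeq2 1.42.0 and leaving out libraries. Leaving out wild-type replicate 2 and knockout replicate 1 together was added after the data were seen. Lengths came from GENCODE 29, which gave values for 97.1% of tested genes. A list of 8 antisense neighbours and FOXC2 was not analysed here. Figures were drawn with matplotlib 3.10.9. Some genes of the lists are not reported here by name.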

Additional observations from a re-analysis of the deposited data

How the results depend on the processing

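ISL1 and NKX2-5 passed in every alternative run, each leaving-out included. Between 2 and 4 factors passed with 1 library removed, where 5.11% to 14.2% of all genes passed. With DESeq2 5 factors passed, beside 20.7% of all genes, and 5 passed without wild-type replicate 2 and knockout replicate 1, beside 30.6%. Between 5 and 8 did not overlap with 1 library removed, where 37% to 50.7% of all genes did not. Without those 2 libraries it was 8, beside 65.7% of all genes. The number of listed genes that passed was 35 with DESeq2, 42 without those 2 libraries and 12 to 26 with 1 library removed. STK25 had log2 fold changes of -1.24 to -1.05 with 1 library removed and -1.28 without those 2 libraries.

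Scaling to equal totals moved the median change over all genes (log2) to -0.27, and scaling to the cardiomyocyte markers moved it to -0.48. Of the genes that passed, 27.4% were higher with equal totals and 14.8% with the markers, in place of 46.8%. GATA4 turned to -0.094, -0.069 and -0.30 with equal totals, quantile normalization and the cardiomyocyte markers, and HAND1 to -0.14, -0.011 and -0.35. Relative to the median of all genes, GATA4 and HAND1 were at 0.18 and 0.13 with equal totals and at 0.18 and 0.13 with the markers. Those 2 scalings divide each library by 1 factor, so subtracting the median nearly returns the main values by construction. With quantile normalization the 2 genes stayed below the median, at -0.090 and -0.032. Leaving out 1 library, GATA4 ran from -0.13 to 0.49 and GATA6 from -0.31 to 0.095. The span of levels per kilobase was 66.5 in the wild type and 37.9 in the knockout with mean transcript lengths. The cause was not tested.

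The labels do not say whether equal replicate numbers mark a pairing. The correlations of deviations between libraries of the same number were -0.23, -0.40 and 0.17. Between libraries of different numbers they ran from -0.35 to 0.45, the highest for wild-type replicate 2 with knockout replicate 1. With 3 libraries per genotype these values cannot decide whether a pairing exists. With the replicate block 798 genes passed in place of 1982, 15 of the listed genes passed, STK25 stayed at -1.12 with an adjusted p of 0.0684, and MEF2C had an adjusted p of 0.0913. In the within-library ratios the block left the differences at 5.53, 0.30, 0.69, -0.53 and 1.77 for ISL1/NKX2-5, GATA4/GATA6, HAND1/HAND2, TBX5/TBX20 and MEF2C/MYOCD. The exact two-sided permutation p-values were at least 0.25, the smallest possible with 3 blocks, so the blocked test could not pass for any pair. Each factor had at least 318 reads in every library, and the part of depth in the calls was not tested.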
